A study of Mus musculus with 9 samples.

Results

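The nuclear genes for subunits of the mitochondrial respiratory chain and ATP synthase were followed at their transcription start sites (TSS) in mouse heart muscle cells after birth. Members were taken by symbol from a deposited table with 1 region per gene start: symbols that begin with Nduf and a, b, c, s or v followed by a digit, with Cox4 to Cox8, with Uqcr or with Atp5, together with Sdha, Sdhb, Sdhc, Sdhd, Cyc1 and Cycs. This gave 69 of 33844 TSS regions, after 5 pseudogene symbols ending in -ps were dropped. The 69 divide into 28 genes of complex I, 2 of complex II, 7 of complex III, 17 of complex IV and 15 of complex V. The rule itself uses names only. Sdhc, Sdhd, Cycs, Cox6a1 and Ndufa4, among others, were not analysed here. Of the members, Atp5sl carries an ATP synthase symbol but is now called Dmac2 and is known as a protein linked to complex I, and Ndufa4l2 is a paralogue of Ndufa4, which was later assigned to complex IV. Both stayed where their symbols put them in the counts and medians by complex. The subgroups within complexes I and V leave them out.

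The respiratory chain sits in the inner mitochondrial membrane. Complex I takes electrons from NADH and complex II from succinate, both pass them to ubiquinone, complex III passes them on to cytochrome c, and complex IV reduces oxygen to water. Complexes I, III and IV pump protons, and complex V, the ATP synthase, uses the proton gradient to make ATP. A few subunits are encoded by mitochondrial DNA and the rest by nuclear genes, and several complex IV subunits exist as a general form and a form restricted to heart and skeletal muscle. The heart shifts after birth from glycolysis towards fatty acid oxidation, and its mitochondria grow in number and size.

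The assay was ATAC-seq, which reads out open chromatin through a transposase that cuts accessible DNA and leaves adapters there. Stages were day 1 (P1), day 14 (P14) and day 56 (P56) after birth in CD-1 (ICR) mice, and each had 3 libraries. The labels name neither a genotype nor a treatment for these hearts, although the growth protocol mentions surgery in passing. A P1 library pooled 12 hearts and a later one 6 to 7, so a replicate is a pool, and the nuclei were sorted on Pcm1, a protein at the nuclear membrane of cardiomyocytes. The design asks how accessibility changes as cardiomyocytes develop.

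The P1 libraries held between 1414979 and 2167369 counts over all TSS regions, the P14 libraries between 481217 and 893032, and the P56 libraries between 874639 and 1468352. A member drew 15 to 189 reads per library at P1 (median 52), 1 to 77 at P14 (median 18) and 6 to 299 at P56 (median 41), so P14 values carried the largest counting error. The most accessible 10% of regions took 31.9 to 33.0% of a library's counts in P1, 34.1 to 35.3% in P14 and 35.5 to 36.8% in P56, a rough gauge of signal over background that separates P1 from P56 completely. P56 replicate 2 had the highest share and P1 replicate 1 the lowest, and 60 of the 69 members reached their highest level of all 9 libraries in P56 replicate 2. Results are therefore also given without this library. In a sorted bulk sample, more nuclei of a type and more open chromatin per nucleus cannot be told apart.

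Cardiomyocyte markers were checked beside the markers of other heart cells. The 10 cardiomyocyte markers together gave a mean over the 3 P1 libraries of 804 CPM (SD 288), where CPM is the count scaled to a common library total. The P14 mean was 899 CPM (SD 106) and the P56 mean 1479 CPM (SD 725), with 2299 in P56 replicate 2. Of these, 5 of 10 rose from P1 to P56 by the test used below, where 1.72% of all regions did. Their median log2 change was 0.83. None of the 10 passed without P56 replicate 2, where 0.361% of all regions were called higher, and the median was then 0.41. The endothelial, fibroblast, leukocyte and smooth muscle lists had 0 of 8 genes called each, with medians of -0.10, -0.35, 0.01 and 0.18. Over all regions 1.72% were called higher and 0.806% lower, so 0 of 8 is near the share of any regions. Their summed levels ranged from 315 to 393 at P1 and 355 to 430 CPM at P56 for endothelial, 351 to 412 and 314 to 359 for fibroblast, 194 to 234 and 202 to 237 for leukocyte, and 168 to 188 and 204 to 214 for smooth muscle and pericyte genes. No marker of any list stood at 0 in any library, and the part of the cell mix in the results was not tested.

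Of the 69 start sites, 11 rose in accessibility from P1 to P56. These were Ndufs7, Ndufv1, Ndufb8 and Ndufb10 of complex I, Sdhb of complex II, Cyc1 and Uqcrc1 of complex III, Cox4i1 and Cox6a2 of complex IV, and Atp5a1 and Atp5j2 of complex V. No member fell. Over all regions, 1.72% were called higher and 0.806% lower. Calls were made with edgeR's quasi-likelihood test on counts at a Benjamini-Hochberg adjusted p below 0.05 over all 33747 regions tested, and all 69 members passed the filter on low counts. A log2 change above 0 was fitted for 64 of 69 members, with a median of 0.60 (1.51-fold), whereas the median over all regions was -0.01. At an unadjusted p below 0.05 stood 39 members higher and 1 lower, against 21.6% of all regions in either direction. The 3 P56 libraries all lay above the 3 P1 libraries for 20 members, where 10.9% of all regions did so, and the reverse held for 1 member, where 13.2% did so.

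**Figure D1:**
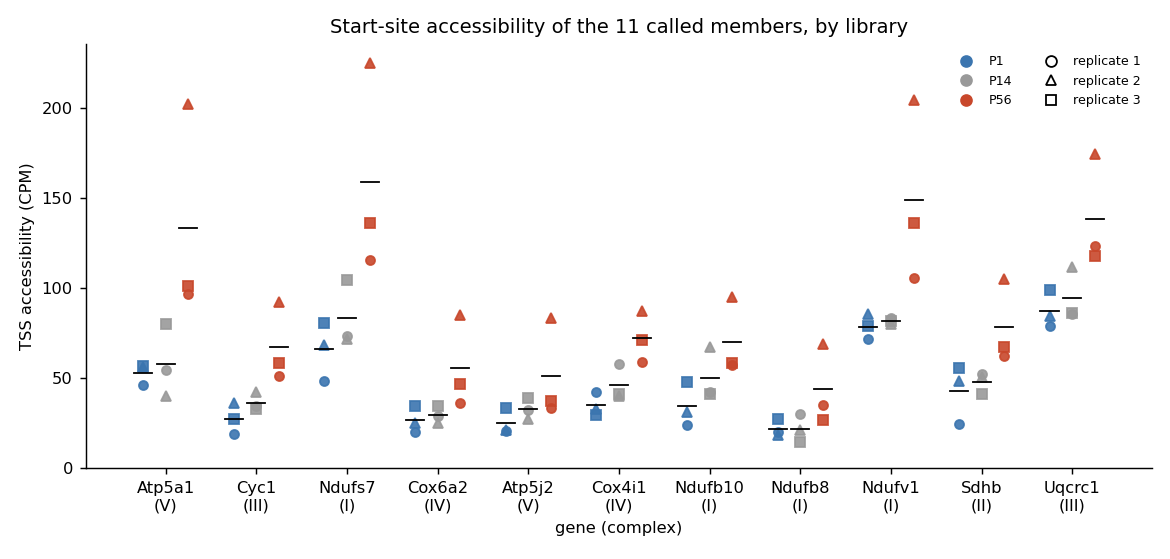
Start-site accessibility in CPM (vertical axis) of the 11 members called higher at P56 than at P1 (horizontal axis), with 1 point per library, colours for stages, shapes for replicates and bars for stage means. P56 replicate 2 is the highest point of each of the 11 genes, up to 225 CPM for Ndufs7.

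Without P56 replicate 2 the count fell to 2 members, Atp5a1 and Ndufs7, with 0.361% of all regions called higher, a median of 0.30 and 54 of 69 members above 0. Leaving out P1 replicate 1 as well gave 3 members, Atp5a1, Ndufs7 and Cox4i1, with 1.47% of all regions called higher and a median of 0.12. Single-library omissions gave between 2 members and the 25 found without P56 replicate 1, where 3.44% of all regions were called higher.

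Complex I, the NADH dehydrogenase, had 4 of 28 members called higher and 27 of 28 above 0, with a median log2 change of 0.48. The core subunit Ndufs7, which holds the iron-sulfur cluster that hands electrons to ubiquinone, measured 48.6, 68.5 and 80.8 CPM in the P1 libraries, 73.3, 71.7 and 104 at P14, and 115, 225 and 136 at P56. No P56 library overlapped a P1 or P14 library, while P1 and P14 overlapped. The gene (ENSMUSG00000020153, GRCm38 chromosome 10, 80249105 to 80256794) rose by a log2 change of 1.28 ± 0.208 (SE; adjusted p = 0.00144), and by 0.93 without P56 replicate 2 (adjusted p = 0.00949). It kept its call in 9 of 9 single-library omissions.

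Ndufv1, the core subunit that binds NADH and the flavin cofactor, stood at 71.6, 85.6 and 78.7 CPM at P1, at 83.2, 80.1 and 81.9 at P14, and at 106, 205 and 136 at P56. Its P14 values lay within the range of P1, and its P56 values above both. The gene (ENSMUSG00000037916, chromosome 19, 4007499 to 4012755) rose by 0.93 ± 0.184 (adjusted p = 0.00788), and without P56 replicate 2 the change was 0.62 (adjusted p = 0.0621). Over the 7 core subunits, which carry out electron transfer and are conserved in bacteria, the median was 0.56, with 2 called. Over the 20 accessory subunits the median was 0.44, with 2 called, both of the membrane arm.

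Those accessory subunits were Ndufb10, at 23.9, 31.5 and 47.7 CPM at P1 and 57.2, 94.8 and 58.2 at P56 (log2 change 1.04 ± 0.253, adjusted p = 0.0258), and Ndufb8, at 20.0, 18.5 and 27.3 CPM at P1 and 35.2, 69.2 and 26.8 at P56 (1.02 ± 0.290, adjusted p = 0.0492). Ndufb8 overlapped between the stages, since P56 replicate 3 lay below the highest P1 library. Both calls were lost without P56 replicate 2, at adjusted p = 0.142 for Ndufb10 and 0.391 for Ndufb8. At the other end, Ndufa5, an accessory subunit of the matrix arm, had a fitted change of -0.0041 ± 0.299, with 21.7, 15.1 and 16.8 CPM at P1 and 11.4, 27.1 and 14.0 at P56.

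A short sequence found in 11 member promoters is shown for the 3 of these genes that were called, and the other 8 genes with it were not called. In 30-base stretches read from the RefSeq promoter table (GRCm38.p6), the capitals mark the letters AAGATGGC, the core of the YY1 motif, here on the gene's own strand. Ndufs7 is chr10:80249462-80249491, plus strand, Ndufb8 is chr19:44555393-44555422, minus strand, and Atp5j2, a complex V gene taken up later, is chr5:145191500-145191529, minus strand.
Ndufs7: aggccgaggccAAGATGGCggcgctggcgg
Ndufb8: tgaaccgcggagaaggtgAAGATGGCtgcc
Atp5j2: accaggacttcAAGATGGCgtcactcggtg
Counted from 0 at the annotated start site, the match begins at +24 in Ndufs7, +38 in Ndufb8 and +23 in Atp5j2. These letters include ATG, the usual translation start codon.

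Complex II, succinate dehydrogenase, had 2 members in the table, and their values went apart. Sdhb, the iron-sulfur subunit (ENSMUSG00000009863, chromosome 4, 140961271 to 140979198), measured 24.7, 48.6 and 55.6 CPM at P1, 52.2, 50.6 and 40.9 at P14, and 62.5, 105 and 67.5 at P56. It rose by a log2 change of 0.89 ± 0.244 (adjusted p = 0.0426), and the change was 0.61 without P56 replicate 2 (adjusted p = 0.214). P1 replicate 1 was the lowest of the 9 libraries for this gene. Sdha, the flavoprotein subunit that oxidises succinate, stood at 37.3, 32.9 and 24.1 CPM at P1 and at 21.1, 48.1 and 23.3 at P56. Its stages overlapped and its change was 0.00 ± 0.278 (adjusted p = 0.997). The difference between the 2 genes was not tested.

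In complex III, cytochrome c reductase, 2 of 7 members were called higher and 6 of 7 lay above 0, with a median of 0.67. Cyc1, the haem protein cytochrome c1 (ENSMUSG00000022551, chromosome 15, 76343513 to 76346260), measured 19.1, 36.3 and 27.3 CPM at P1, 34.4, 42.2 and 32.8 at P14, and 51.1, 92.5 and 58.2 at P56. Its P56 libraries lay above all libraries of the other stages. The change was 1.32 ± 0.257 (adjusted p = 0.00698), and 1.01 without P56 replicate 2 (adjusted p = 0.0558).

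Uqcrc1, a core protein of the matrix side (ENSMUSG00000025651, chromosome 9, 108936648 to 108949641), stood at 79.0, 84.2 and 99.1 CPM at P1, 85.5, 112 and 86.0 at P14, and 123, 174 and 118 at P56. It rose by 0.67 ± 0.172 (adjusted p = 0.0319), the smallest log2 change among the 11 called members, and by 0.46 without P56 replicate 2 (adjusted p = 0.158, not called). Its companion core protein Uqcrc2, singled out here after its values were seen, had 33.9, 17.8 and 25.7 CPM at P1 and 18.5, 40.6 and 19.8 at P56. That was a change of 0.04 ± 0.286 with overlapping stages. The lowest value of the complex was that of Uqcrb, a ubiquinone-binding subunit, at -0.11 ± 0.310, with 11.4, 12.0 and 11.6 CPM at P56.

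The Uqcrc1 promoter is shown for the core sequence of nuclear respiratory factor 1 (NRF1), CGCATGCG, which reads the same on both strands. Beside it stand Uqcr11, a small complex III subunit, and Atp5g2, a c-ring gene, each as a 30-base stretch with the match in capitals. Uqcrc1 is chr9:108936668-108936697, plus strand, Uqcr11 is chr10:80406808-80406837, minus strand, and Atp5g2 is chr15:102671070-102671099, minus strand.
Uqcrc1: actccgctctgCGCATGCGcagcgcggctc
Uqcr11: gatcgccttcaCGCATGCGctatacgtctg
Atp5g2: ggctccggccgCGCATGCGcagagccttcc
The match starts at +31 in Uqcrc1, -5 in Uqcr11 and -41 in Atp5g2. The TSS changes from P1 to P56 were 0.67, 0.70 and 0.27 in that order, of which only that of Uqcrc1 was called.

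Complex V, the ATP synthase, had 2 of 15 members called higher, and all 15 lay above 0, from 0.22 for Atp5e to 1.35 for Atp5a1. The median was 0.70, the highest of the 5 complexes, whose differences from each other were not tested. Atp5a1, the alpha subunit of the F1 head (ENSMUSG00000025428, chromosome 18), measured 46.4, 56.1 and 56.6 CPM at P1, 54.4, 40.1 and 79.8 at P14, and 96.8, 202 and 101 at P56. Its P56 libraries all lay above the rest, with P1 and P14 overlapping. It had the largest change of the members, 1.35 ± 0.225 (2.55-fold, adjusted p = 0.00201), and kept its call in 9 of 9 single-library omissions. Without P56 replicate 2 the change was 0.90 (adjusted p = 0.0223), and without P1 replicate 1 as well 0.80 (adjusted p = 0.00537).

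Atp5j2, subunit f of the membrane part (ENSMUSG00000038690, chromosome 5, 145183704 to 145191541), stood at 20.8, 21.2 and 33.6 CPM at P1 and 33.5, 83.5 and 37.3 at P56. The change was 1.05 ± 0.288 (adjusted p = 0.0439), P56 replicate 1 overlapped the highest P1 library, and without P56 replicate 2 it was 0.48 (adjusted p = 0.414). The 5 genes grouped as F1 head and stalk, Atp5a1, Atp5b, Atp5d, Atp5e and Atp5o, had a median of 0.88, the value of Atp5o itself. Atp5o is a peripheral stalk subunit, so this group is not the F1 head and central stalk alone. The 3 c-ring genes had a median of 0.82 with none called, and the 6 other membrane and peripheral stalk genes 0.66. Atp5b, the catalytic beta subunit that pairs with alpha, was singled out after its values were seen. It measured 34.3, 37.7 and 53.0 CPM at P1 and 46.7, 97.8 and 57.1 at P56, a change of 0.70 ± 0.243 that was not called (adjusted p = 0.0947). Atp5e, the epsilon subunit of the stalk, had the lowest value of the complex, at 0.22 ± 0.264.

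In complex IV, cytochrome c oxidase, 2 of 17 members were called higher and 14 lay above 0, with a median of 0.58. It also had the widest spread, from -0.90 for Cox7b2 to 1.09 for Cox6a2. Cox4i1, the general form of the largest nuclear subunit (chromosome 8, 120668225 to 120674209), measured 42.5, 32.9 and 29.4 CPM at P1, 57.7, 40.1 and 40.9 at P14, and 59.0, 87.2 and 71.0 at P56. P56 lay above P14 and P1, though P14 replicate 1 came close to P56 replicate 1. The change was 1.05 ± 0.224 (adjusted p = 0.0123). Without P56 replicate 2 it was 0.88 (adjusted p = 0.0610), and without P1 replicate 1 as well 1.04 (adjusted p = 0.00252).

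**Figure D2:**
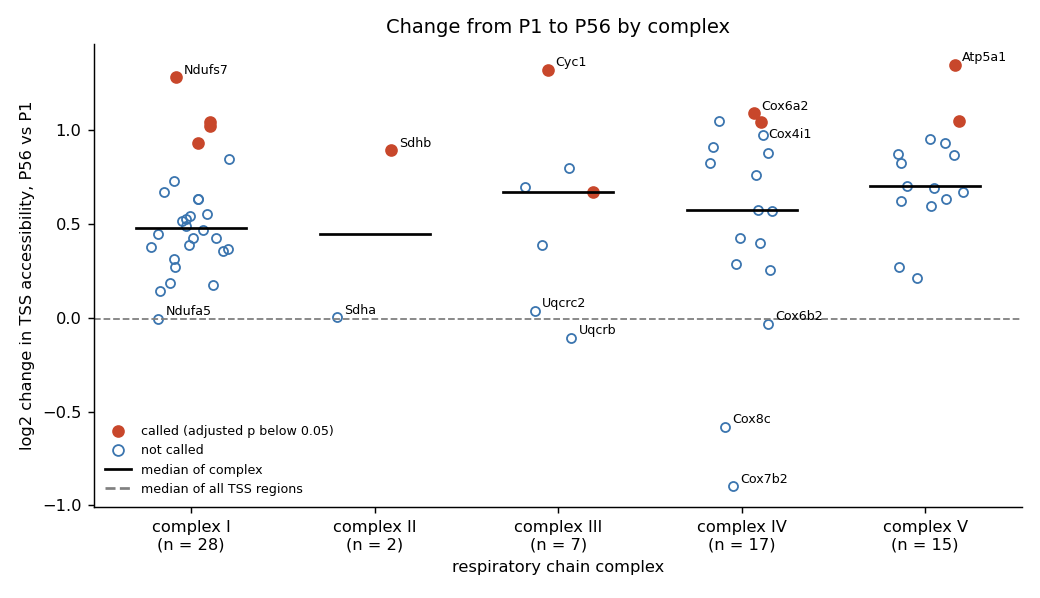
Log2 change in TSS accessibility from P1 to P56 (vertical axis) of each of the 69 members, by complex (horizontal axis). Filled points are the 11 called members, black bars the median of each complex (0.48, 0.45, 0.67, 0.58 and 0.70 from I to V) and the dashed line the median of all regions. The lowest points are Cox7b2 and Cox8c of complex IV.

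The isoforms of complex IV that are restricted by tissue went different ways in their fitted values over all libraries. The 3 heart and skeletal muscle isoforms, Cox6a2, Cox7a1 and Cox8b, had a median of 0.97 with 1 called, and the 9 general subunits a median of 0.76 with 1 called. The 4 isoforms known from lung or testis, Cox4i2, Cox6b2, Cox7b2 and Cox8c, had a median of -0.31 with none called. These medians were, without P56 replicate 2, 0.41, 0.42 and -0.22. Without P1 replicate 1 as well they were 0.17, 0.03 and -0.03, so little of the difference was left. Cox7a2l, with a change of 0.83 in the fit of all libraries, was placed in none of these groups.

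Cox6a2, the heart and muscle form of subunit 6a (chromosome 7, 128205435 to 128206366), measured 20.0, 25.3 and 34.6 CPM at P1, 28.9, 25.3 and 34.8 at P14, and 36.1, 85.0 and 46.6 at P56. The P1 and P56 libraries did not overlap, but their nearest values differed by less than the spread within P1. It rose by 1.09 ± 0.276 (adjusted p = 0.0310), and the change was 0.63 without P56 replicate 2 (adjusted p = 0.260). Its general partner Cox6a1 was not analysed here.

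Cox7a1, the muscle form of subunit 7a, stood at 20.8, 26.0 and 31.5 CPM at P1, 27.7, 31.6 and 49.1 at P14, and 35.2, 84.2 and 30.3 at P56. The P56 value of replicate 2 stood apart and that of replicate 3 lay within P1, with a change of 0.97 ± 0.297 (adjusted p = 0.0651). Cox8b, the muscle form of subunit 8, measured 23.9, 39.7 and 43.0 CPM at P1, 27.7, 27.4 and 18.4 at P14, and 39.6, 63.2 and 54.7 at P56. Its lowest value was that of P14 replicate 3, while P1 replicate 1 lay below P14 replicates 1 and 2. Its P1 to P56 change was 0.58 ± 0.253 (adjusted p = 0.180).

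Among the isoforms of other tissues, Cox7b2, a testis form of subunit 7b, was the 1 member with every P1 library above every P56 library. It measured 27.3, 24.0 and 23.6 CPM at P1, 17.8, 19.0 and 20.5 at P14, and 13.2, 9.02 and 19.8 at P56. The change was -0.90 ± 0.278 and missed the threshold (adjusted p = 0.0678). Scaling by library size alone gave -1.03 (adjusted p = 0.0406) and scaling by the factors of the peak table gave -1.18 (adjusted p = 0.0182), and these scalings called 2.31 and 6.82% of all regions lower. Cox8c, a testis form of subunit 8, had -0.58 ± 0.345 (adjusted p = 0.326), Cox6b2, a testis form of subunit 6b, -0.03 ± 0.251, and Cox4i2, a form of subunit 4 known from lung, 0.40 ± 0.242.

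Muscle and general isoforms were compared within libraries, where the scaling between libraries cancels. For each of the 7 pairs with both genes in the table, log2 of the ratio of their CPM values (with 0.5 CPM added to each) was compared over the 3 stages by exact permutation of the F statistic (two-sided, 1680 assignments of libraries, smallest possible p 0.00357). The ratio of Cox7a1 to Cox7a2 was 0.61, 0.29 and 0.20 at P1, 1.03, 0.44 and 1.74 at P14, and 0.67, 0.92 and 0.44 at P56. All 9 were above 0 and the stages overlapped (exact permutation p = 0.186, adjusted over the 7 pairs 0.290). Cox8b to Cox8a was 0.60, 0.02 and 0.05 at P1, -0.70, -0.93 and -1.13 at P14, and 0.40, -0.51 and -0.03 at P56. All 3 P14 libraries lay below the other 6, and P1 overlapped P56 (exact permutation p = 0.0179, adjusted 0.125).

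**Figure D3:**
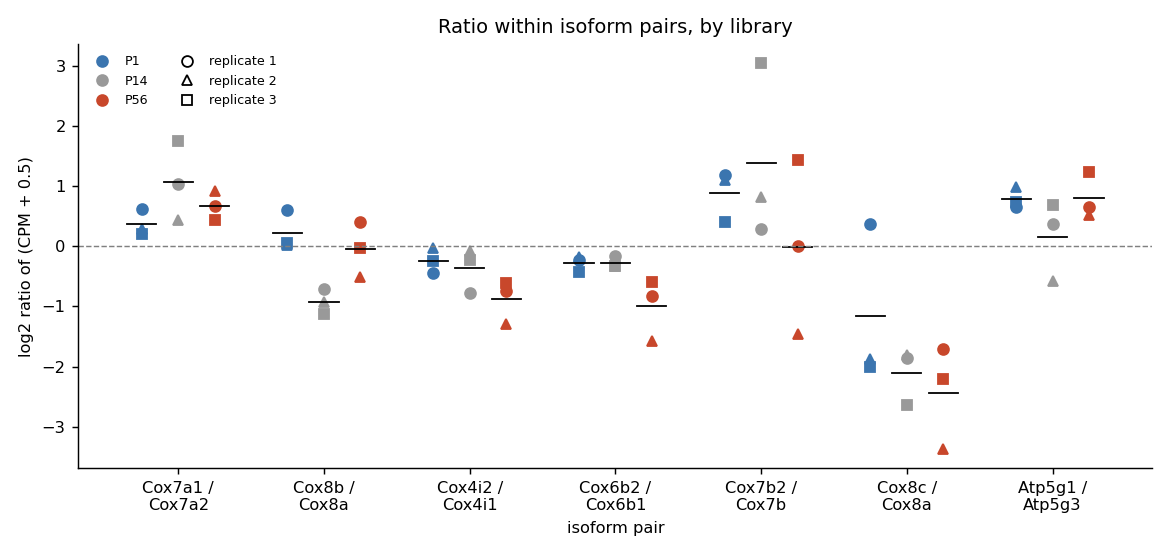
Log2 ratio of the CPM values of the tissue-restricted gene to its partner (vertical axis; for Atp5g1 / Atp5g3, 1 c-ring gene to another) in each library, for 7 pairs (horizontal axis). Colours mark stages, shapes replicates and bars stage means. For Cox8b / Cox8a the 3 P14 points, from -1.13 to -0.70, lie below the other 6.

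The ratio of Cox6b2 to Cox6b1 was -0.23, -0.17 and -0.43 at P1, -0.16, -0.33 and -0.34 at P14, and -0.83, -1.58 and -0.59 at P56. The P56 libraries lay below the other 6 (exact permutation p = 0.0357, adjusted 0.125). Mean changes of the log2 ratio from P1 to P56 in the remaining pairs were -0.64 for Cox4i2 to Cox4i1 (exact permutation p = 0.121, adjusted 0.283), -0.90 for Cox7b2 to Cox7b (0.489 and 0.489), -1.26 for Cox8c to Cox8a (0.404 and 0.471) and 0.01 for Atp5g1 to Atp5g3 (0.207 and 0.290). The last pair encodes the same mature c-ring protein from separate genes. No pair passed after adjustment.

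The promoters of both muscle and general pairs are shown because the members with few CpG sites include Cox7a1 and Cox8b. Each is 280 bases, 250 before and 30 after the RefSeq start site of GRCm38.p6, read along the gene's strand. Capitals mark matches on either strand to CCAAT (seen as ATTGG where it lies on the other strand), CAGCTG (a myogenic E-box), TATAAA (the TATA box), GGGCGG (the SP motif) and CCGGAAG (the ETS core, seen as CTTCCGG on the other strand). Cox7a1 is chr7:30183921-30184200, plus strand, Cox7a2 is chr9:79759824-79760103, minus strand, Cox8b is chr7:140900417-140900696, minus strand, and Cox8a is chr19:7217587-7217866, minus strand.
Cox7a1: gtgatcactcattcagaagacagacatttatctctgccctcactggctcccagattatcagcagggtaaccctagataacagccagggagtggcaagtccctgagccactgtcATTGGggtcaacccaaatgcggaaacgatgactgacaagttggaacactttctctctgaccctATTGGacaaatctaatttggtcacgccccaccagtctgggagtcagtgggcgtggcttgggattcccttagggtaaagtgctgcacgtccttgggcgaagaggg
Cox7a2: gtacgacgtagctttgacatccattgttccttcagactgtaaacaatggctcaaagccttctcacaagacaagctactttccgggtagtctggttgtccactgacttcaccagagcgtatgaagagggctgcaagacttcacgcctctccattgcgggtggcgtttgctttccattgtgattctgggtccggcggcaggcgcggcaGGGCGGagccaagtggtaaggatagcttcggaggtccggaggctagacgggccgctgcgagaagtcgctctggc
Cox8b: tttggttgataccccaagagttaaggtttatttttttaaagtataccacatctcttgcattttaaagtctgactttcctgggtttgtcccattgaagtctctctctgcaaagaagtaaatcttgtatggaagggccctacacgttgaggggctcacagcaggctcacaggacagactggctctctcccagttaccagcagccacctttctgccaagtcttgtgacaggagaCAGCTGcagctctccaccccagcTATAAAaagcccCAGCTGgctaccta
Cox8a: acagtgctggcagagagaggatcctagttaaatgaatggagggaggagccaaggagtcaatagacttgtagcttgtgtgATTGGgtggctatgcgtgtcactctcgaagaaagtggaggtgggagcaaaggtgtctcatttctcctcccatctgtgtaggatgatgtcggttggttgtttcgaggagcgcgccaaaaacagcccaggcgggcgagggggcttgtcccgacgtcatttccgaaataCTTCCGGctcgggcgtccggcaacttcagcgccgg
In Cox8b the E-box letters occur at -19 and +16 with TATAAA between them at +4, and in Cox7a1 CCAAT occurs at -137 and -74. In the general forms, Cox7a2 has 1 SP match at -44, and Cox8a has CCAAT at -171 and ETS matches at -5 and, past the printed stretch, at +32. Of the 57 members with a promoter in the table, 4 had a window with fewer than 10 CpG, namely Cox7a1, Cox8b, Cox7b and Ndufc2. The median was 19 CpG over the members' 62 windows and 12 over all 18894 windows of 15225 genes, and the median GC content was 57.0 and 56.3%.

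Motif shares were counted on both strands in the full 300-base windows, 250 before and 50 after the start. The YY1 core AAGATGGC was in 12 of 62 member windows (11 genes), 19.4% against 2.87% of all windows, and 9 of the 11 matches began at or after the start site. The NRF1 core CGCATGCG was in 9.68% against 2.41%, the ETS core CCGGAAG in 22.6% against 10.6%, and the ERR core AAGGTCA in 11.3% against 4.02%. GGGCGG was in 37.1% against 45.9%, CCAAT in 38.7% against 36.8%, CAGCTG in 8.06% against 16.7%, and TATAAA in 12.9% against 11.6%. The MEF2 consensus matched none of the 62 member windows and 0.587% of all windows. These are letter matches, several members have more than 1 window, and no factor binding was measured.

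The change between P1 and P14 was small in the members' median. From P1 to P14 no member was called in either direction (0.0119% of all regions higher and 0% lower), the median log2 change was 0.06, and 1 member passed an unadjusted p below 0.05, where 8.59% of all regions did. DESeq2 and limma-voom also called none. That member was Ndufa4l2, known as hypoxia-inducible, at 24.7, 22.6 and 21.0 CPM at P1, 42.2, 27.4 and 36.9 at P14, and 44.0, 33.8 and 27.9 at P56. Its P1 libraries lay below the other 6, and the P1 to P14 change was 0.67 with an adjusted p of 0.532.

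From P14 to P56 none was called either (0.00296% of all regions higher and 0% lower), with a median of 0.54 and 30 members higher and 0 lower at an unadjusted p below 0.05, where 10.1% of all regions passed. DESeq2 and limma-voom called none here too. Atp5a1 had the smallest adjusted p, 0.0767, with a change of 1.22. This comparison shares the P56 libraries with that of P56 and P1. Summed over the 69 members, levels were 1854, 2194 and 2492 CPM at P1, 2248, 2411 and 2269 at P14, and 2629, 4699 and 2921 at P56. The P14 libraries all lay within the P1 range, and the P56 libraries above both.

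**Figure D4:**
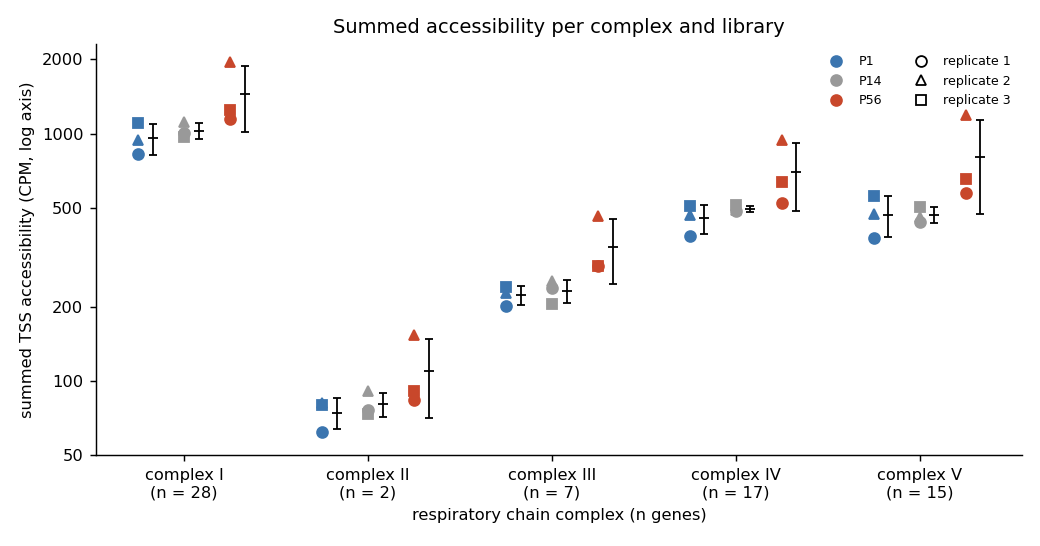
Summed TSS accessibility of the members of each complex in CPM (vertical axis, log scale) in each library, by complex (horizontal axis), with the mean and SD of each stage (n = 3) beside the points. In complex V the P56 libraries are at 576, 1187 and 659 CPM and the P1 libraries at 380, 474 and 560.

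Genes that build the chain were followed beside its subunits. Of 53 assembly factors listed, which help put subunits and cofactors together, 33 were in the table. From P1 to P56, 1 of the 33 rose and none fell, where 1.72% of all regions were called higher and 0.806% lower. A change above 0 was fitted for 28, and the median was 0.37. The 1 called was Coa7, a factor of complex IV, at 17.8, 32.2 and 33.0 CPM at P1 and 40.5, 75.2 and 50.1 at P56 (1.03 ± 0.270, adjusted p = 0.0373). No assembly factor was called without P56 replicate 2. By complex, assembly factor medians were 0.20 for I (8 genes), 0.40 for III (6), 0.46 for IV (15) and 0.25 for V (3), with a single complex II factor at -0.14.

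Of 18 regulators of mitochondrial genes, 17 were in the table. A change above 0 was fitted for 15 of them, with a median of 0.13. From P1 to P56, 1 of the 17 rose and none fell, where 1.72% of all regions were called higher and 0.806% lower. The 1 called was Esrrb, an oestrogen-related receptor, at 85.9, 100.0 and 116 CPM at P1 and 129, 189 and 157 at P56 (0.66 ± 0.162, adjusted p = 0.0273). Its change without P56 replicate 2 is not reported here. Ppargc1a, the coactivator PGC-1 alpha, had a change of 0.09 (adjusted p = 0.876), Nrf1 0.09 (0.798), Gabpa, the DNA-binding part of the ETS factor GABP, -0.12 (0.805), and Tfam, the mitochondrial DNA packaging factor, 0.01 (0.983). Esrra, the receptor most often linked to respiratory genes, had 0.69 and was not called (0.103). Start-site accessibility does not measure the amount of these factors.

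A few member start sites lie within 1 kb of another gene's start on the opposite strand, and the counts carry no strand. There were 7 such members in the promoter table. Atp5j, a peripheral stalk subunit, starts 148 bp from Gabpa, with fitted changes of 0.60 and -0.12. Atp5f1, another stalk subunit, starts 235 bp from Wdr77 (0.70 and -0.15), and Ndufs3, a complex I core subunit, starts 19 bp from Kbtbd4 (0.73 and 0.55). None of these 7 members was among the called ones. Atp5a1, Cox4i1, Cox6a2 and Cyc1, which were called, are not in the promoter table and were not searched for such neighbours. The width of a TSS region is not given, so how far the regions of such a pair share reads is not known. Any shared reads cannot be assigned to 1 gene.

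The separate peak table gave a second count of the same libraries, so it is not independent of the TSS counts. For the 57 members in the promoter table a peak was sought within 1 kb of the annotated start site, and 43 of them had 1 each. For the other 12 the strand was not given in the table used, so both gene ends were searched, and 6 of them had 8 peaks, which need not lie at the start. Of these 51 peaks at 49 members, 49 had a log2 change above 0 from P1 to P56. Their median was 0.40 (0.39 over the 43 start-site peaks), against 0.03 for all peaks. At an adjusted p below 0.05, 1 of the 51 was called higher and 0 lower (0.212% and 0.232% of all 25885 peaks). None of the 43 start-site peaks was called. The called peak lies over 1 end of Atp5a1 and measured 123, 89.8 and 99.8 CPM at P1 and 165, 326 and 194 at P56, with no overlap (1.13 ± 0.243, adjusted p = 0.0165). The peak over the other end of the gene had 1.04 ± 0.282 and was not called (adjusted p = 0.0577), and which of them holds the start site was not determined. The called peak had, without P56 replicate 2, a change of 0.78 (adjusted p = 0.250), no peak of the table was called, the members' median was 0.19 and 39 of 51 lay above 0. Without P1 replicate 1 as well, the median was -0.02 with 25 of 51 above 0, and 2 were called higher, where 1.56% of all peaks were. Among the 11 members called at the TSS, Cyc1, Ndufb10 and Ndufs7 had no peak within 1 kb by this search.

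**Figure D5:**
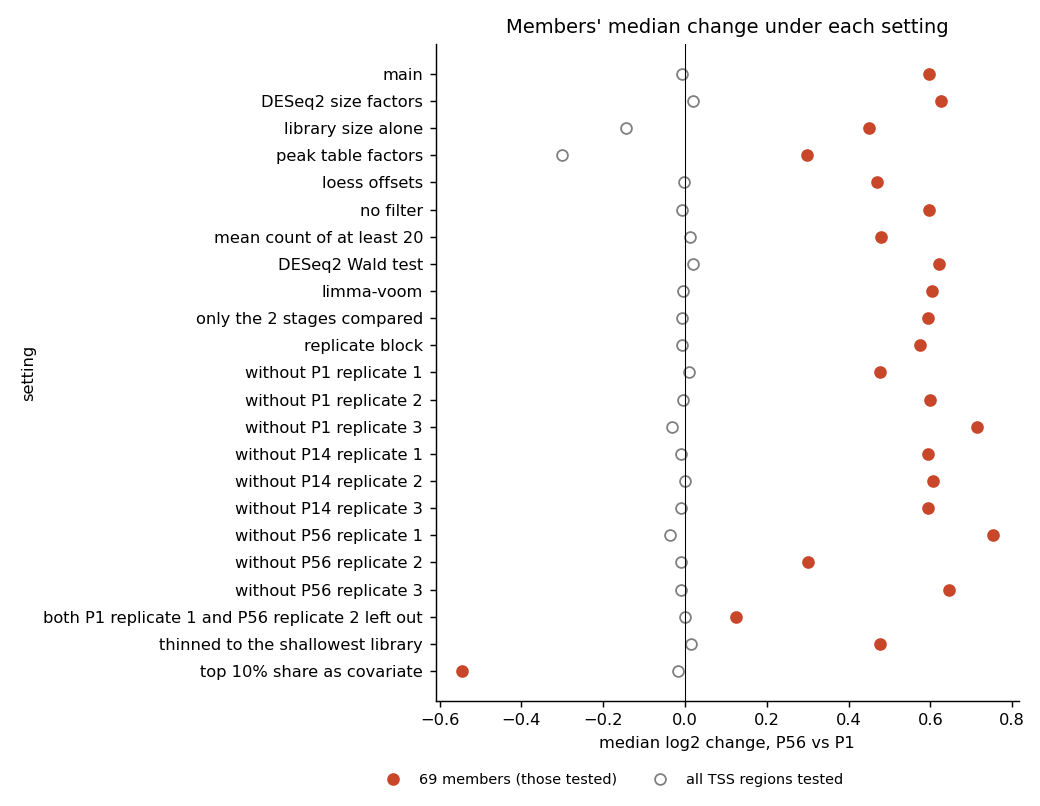
Median log2 change from P1 to P56 (horizontal axis) over the members tested (filled) and over all TSS regions tested (open) under each processing setting (vertical axis). The members' median is 0.60 in the main fit, 0.30 without P56 replicate 2, 0.12 without that library and P1 replicate 1, and -0.54 with the top 10% share as a covariate.

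With the share of the most accessible 10% of regions as a covariate no member was called and the median turned to -0.54; that share and the stage cannot be told apart, since every P56 library exceeds every P1 library in it. By complex the medians without P56 replicate 2 were 0.21, 0.05, 0.20, 0.39 and 0.39 from I to V. Without P1 replicate 1 as well they were 0.12, -0.03, 0.15, 0.15 and 0.12. The members' share of all TSS counts was 0.197, 0.227 and 0.261% at P1, 0.227, 0.238 and 0.227% at P14, and 0.259, 0.426 and 0.287% at P56. By this measure P56 replicate 1 lay below P1 replicate 3 and the other 2 P56 libraries lay above every P1 library.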

How the data were processed

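The authors deposited unnormalised read counts per TSS region and per peak of a common list for 9 libraries, per the file headers and values. Per the submitters' processing notes the build was GRCm38 and the tools named are featureCounts 1.4.2, MACS 1.4.0, BWA 0.7.10, bedtools 2.26, bcl2fastq 2.17.1.14 and SAMtools 1.3.1. Their order, read filters, the width of a TSS region and how samples were combined to call peaks are not given in the sources used here. Every deposited TSS region averaged at least 10 counts, so weaker start sites could not be analysed.

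The members and gene lists were chosen with earlier results of these data known, so lists are described by counts and medians and received no test. Counts were fitted with edgeR 4.0.16 in R 4.3.3 over all 9 libraries (TMM scaling, the default filter by stage, 1 coefficient per stage, quasi-likelihood F test, Benjamini-Hochberg adjustment over all regions). CPM values use TMM-scaled totals, and an SE is the log2 change divided by the root of F. The fits were also run on simulated counts that had the same spread for all regions and no outlying library. No stage difference in signal over background was built in, so that run does not cover these features of the data. Genes named were all called members, both genes of each isoform pair, per complex the member with the smallest p and those with the highest and lowest change, called assembly factors and regulators, and 5 fixed regulators.

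Promoter windows came from a RefSeq table of GRCm38.p6, which held 57 of the 69 members; a peak was placed within 1 kb of these start sites, or of either gene end for the other 12. Alternatives covered scaling (DESeq2 1.42.0 size factors, library size, peak table factors, loess offsets), filters, tools (DESeq2, limma-voom 3.58.1), samples, depth, a stricter threshold and a replicate block. The covariate of the top 10% share, the omissions in the peak table and its replicate block, and the omission of P56 replicate 2 beside single counts were added after seeing the data. P-values measure the spread between pools of hearts.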

Additional observations from a re-analysis of the deposited data

How the results depend on the processing

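From P1 to P56, 11 members were called higher, and shares in parentheses are of all regions called in the same direction (1.72% in the reported fit). DESeq2 size factors gave 8 (1.56%), the peak table's factors 8 (0.599%), no filter 11 (1.73%) and limma-voom 11 (2.38%). Library size alone gave 7 (0.945%), the DESeq2 Wald test 7 of 37 members with an adjusted p (3.51%), a mean count of at least 20 gave 5 (0.781%), the 2 stages alone 5 (0.42%), an adjusted p below 0.01 gave 4 (0.255%) and loess offsets 3 (0.347%). Leaving out both P1 replicate 1 and P56 replicate 2 gave 3 (1.47%), thinning to the shallowest library 0 (0%) and the top 10% share as a covariate 0 (0%). Omitting 1 library gave from 2 (0.361%, without P56 replicate 2) to 25 (3.44%, without P56 replicate 1), with 5 (0.54%) without P1 replicate 1, 4 (0.428%) without P1 replicate 2, 6 (0.954%) without P14 replicate 1 and 7 without P14 replicate 2 (1%) or 3 (1.05%). Library size alone, the peak table's factors and the replicate block each called 1 lower, Cox7b2 (2.31, 6.82 and 1.76%). The first 2 of these moved the median of all regions to -0.14 and -0.30. From P14 to P56, library size alone, the peak table's factors and the 2 stages alone called 1 higher (0.0296, 0.0593 and 0.0861%), and omissions 0 to 4 (0.29% for the 4). From P1 to P14 every setting run called 0.

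The members' median of 0.60 was 0.30 to 0.75 with 1 library omitted, 0.12 without both libraries and -0.54 with the covariate. Under the covariate the fitted values of 10 of the 11 called members changed sign: Atp5a1 -0.16, Atp5j2 -0.42, Cox6a2 -0.41, Cyc1 -0.77, Ndufb10 -0.41, Ndufb8 -0.12, Ndufs7 -0.080, Ndufv1 -0.39, Sdhb -0.48 and Uqcrc1 -0.28. None of these negative values was called (edgeR adjusted p of 0.992 or more for each), and the covariate cannot be told apart from the stage. Peaks called at members numbered 1, with 0 at an adjusted p below 0.01, 2 within 5 kb, 2 without both libraries, and 0 (without P1 replicate 2 or P56 replicate 2) to 5 (without P56 replicate 1, 1.05% of all peaks) with 1 library omitted. No alternative changed whether an isoform pair passed, but not every alternative could have done so. With the P1 and P56 libraries alone, too few assignments of libraries exist for any pair to pass. Subtracting the fitted changes of the genes in a pair gave no p-value. The cause of these changes was not tested for any setting.

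The labels state no pairing by replicate number, and the samples were treated as unpaired. Same-numbered libraries of different stages correlated at -0.07 to 0.22 in their deviations, 1 of 9 pairs over 0.1. Differently numbered ones correlated at -0.27 to 0.25, 1 of 18 pairs over 0.1. With counts this low, such correlations cannot settle whether same-numbered libraries share a source. With the replicate block 24 members (4.11% of all regions) were called higher from P1 to P56, 4 (0.201%) from P14 to P56, and 4 peaks (1.05% of all peaks). P14 counts as low as 1 per member limit both P14 comparisons.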
